A study of Mus musculus with 12 samples.

Results

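The expression of 38 genes of ribosome biogenesis and the nucleolus was examined in a mouse model of chronic myeloid leukemia (CML). The cells were CD27+ KSL cells with and without a G0 marker. The genes were taken by function, as nucleolar, rRNA processing and RNA polymerase I genes, and the rule used no measured value, although results of these data were known when the list was made. All 38 were listed in the files and all 38 passed the filter on low values, beside 10072 genes tested and 46102 genes listed after numbered copies of a gene were summed. RNA was sequenced in 12 libraries, each from 100 sorted cells, with 3 libraries in each of 4 groups. All cells were BCR-ABL1+ and sorted as KSL (lineage-negative, Sca1-positive and cKit-positive) from bone marrow and spleen of lethally irradiated C57BL/6 recipients, which had received bone marrow transduced by retrovirus with BCR-ABL1. The donor marrow carried the G0 marker (G0M), a fluorescent fusion with a p27 mutant that no longer inhibits Cdk, switched on in blood cells by Vav1-Cre. DP cells were G0M+CD27+ and SP cells were G0M-CD27+, both from mice given vehicle. IMDP and IMSP cells were the same populations after oral gavage with imatinib, which blocks the BCR-ABL1 kinase, once a day. BCR-ABL1 was driven by a viral vector in transplanted marrow, so the groups model the human disease only in that form, and the number of mice behind a library was not given in the sources used here. The mice were young females.

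Ribosomes are assembled mainly in the nucleolus, where RNA polymerase I transcribes the large precursor of the ribosomal RNAs. Small nucleolar RNPs (snoRNPs) guide chemical modification of that precursor, and large sets of assembly factors cut it, fold it and join it to ribosomal proteins to form the small and the large subunit. Production of ribosomes takes much of the energy of a growing cell, it is lower in resting than in dividing blood stem cells, and many of its genes are known targets of the transcription factor MYC.

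The authors divided reads by a total of 11.4 M to 20.6 M per library, of which 25.9% to 37.1% fell on the listed features, and the 38 genes had between 68 and 6291 reads each in any library. RPKM scales reads by transcript length and by that total, so levels can be set side by side between genes. One library stood apart before any comparison was made. IMDP2, the second IMDP library, had the smallest share of reads on listed features (25.9%) and was the lowest of 12 libraries for 37 of the 38 genes, the exception being Bysl. Results that rest on it are therefore also given without it. The sorted markers Kit, Ly6a (the gene of Sca1), Cd27, Cd34 and Vav1 were above 0 in every library, with Kit between 16.8 and 39.8 RPKM. The library numbers in the labels were 1 to 6 for the imatinib libraries and 7 to 12 for the vehicle libraries, so treatment and library number cannot be told apart. Nothing in the labels says that libraries of a group came from separate mice, and p-values then measure only the spread between these samples.

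The 38 genes were among the more strongly expressed genes of these cells. Their mean level over the 12 libraries had a median of 13.5 RPKM, compared with 4.60 RPKM over all genes tested, and 36 of the 38 lay above that value. The exceptions, Nop14 and Ddx10, had mean levels of 4.58 and 4.45 RPKM. Npm1, which encodes the nucleolar chaperone nucleophosmin, was the highest at 90.0 RPKM. It was followed by Fbl, the methyltransferase of box C/D snoRNPs, at 52.6 RPKM, Mybbp1a, a nucleolar protein, at 51.8 RPKM, Noc2l at 50.2 RPKM and Nop10 at 48.1 RPKM, and the neighbours within this run differed by less than the spread between libraries. The catalytic core of RNA polymerase I was expressed at a lower level, with 8.97 RPKM for Polr1a and 10.1 RPKM for Polr1b. Within groups, the median coefficient of variation of the 38 genes was 11.4% in DP cells, 9.64% in SP cells, 29.3% in IMDP and 17.9% in IMSP cells, compared with 15.5%, 14.8%, 18.8% and 17.7% over all genes tested. The higher value of IMDP cells rested on IMDP2, without which it was 7.03%, compared with 14.5% over all genes.

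The genes moved together from library to library. Over the 12 libraries, which share library, depth and group differences, the correlation of each gene with the mean of the other members had a median of 0.94 and ranged from 0.82 to 0.98. After every library was scaled to the same median over all genes, it had a median of 0.89 and ranged from 0.60 to 0.98. The heat map of the genes by library shows the pale vehicle libraries, the low column of IMDP2 and the high columns of IMSP1 and IMSP3.

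**Figure D1:**
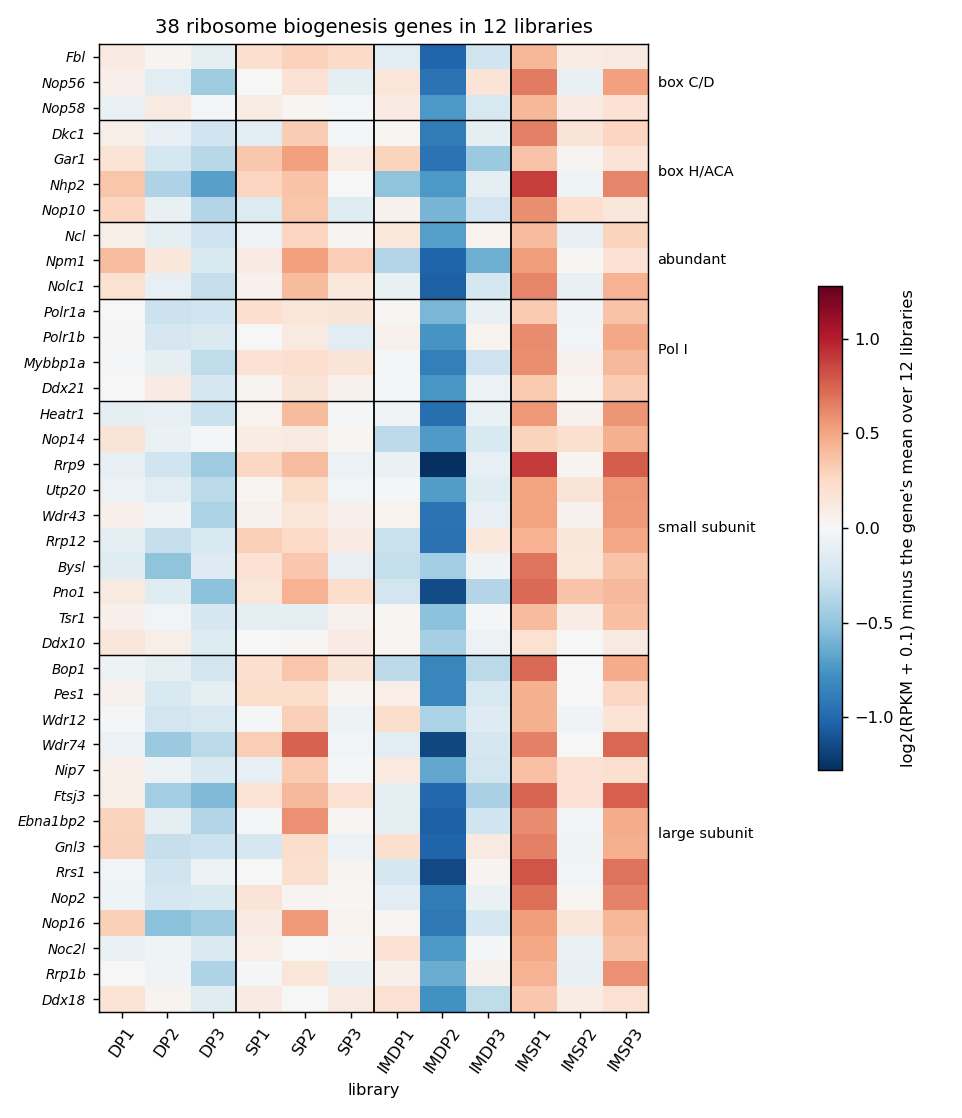
Heat map of the 38 genes (rows, grouped by role) in the 12 libraries (columns, grouped as DP, SP, IMDP and IMSP); color gives log2(RPKM + 0.1) minus the gene's own mean over the 12 libraries. IMDP2 was the lowest library for 37 genes, and IMSP1 was the highest for 27 and IMSP3 for 8.

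Because the genes moved together, their promoter windows were inspected. RefSeq windows of GRCm38.p6, from 250 bases before to 50 bases after a transcription start, were found for 33 of the 38 genes (37 windows), and none were given for Rrs1, Fbl, Npm1, Rrp12 and Bop1. The E-box CACGTG, a palindrome and the letters that MYC with its partner MAX is known to bind, stood in 7 of the 37 windows (18.9%), compared with 10.3% of the windows of tested genes and 7.15% of all 32851 windows. CGGAAG, the core letters bound by ETS family factors, searched on both strands, stood in 19 of the 37 windows (51.4%), compared with 33.4% of the windows of tested genes and 16.9% of all windows. The median GC content of the windows was 58.0% for the 38 genes and 61.0% for tested genes. The stretches around the 7 E-boxes are given first, 5′ to 3′ on the strand of the gene with the E-box in capitals, because they show how its neighbours differ while its letters are shared. They lie at chr11:72441355-72441376 (plus strand) for Mybbp1a, chr6:125131811-125131840 (plus) for Nop2, chr11:3963965-3963994 (plus) for Pes1, chr11:17211540-17211564 (minus) for Pno1, chr11:74898092-74898121 (plus) for Tsr1, chr10:88826765-88826789 (minus) for Utp20 and chr17:71616220-71616249 (plus) for Wdr43.
Mybbp1a: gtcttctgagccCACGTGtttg
Nop2: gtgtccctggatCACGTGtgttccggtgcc
Pes1: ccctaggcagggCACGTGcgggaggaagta
Pno1: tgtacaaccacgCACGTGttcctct
Tsr1: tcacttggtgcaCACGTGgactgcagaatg
Utp20: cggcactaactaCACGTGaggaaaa
Wdr43: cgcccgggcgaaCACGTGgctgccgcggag
Nop2, a methyltransferase of the large subunit rRNA, held the E-box upstream of its start, with its first base at position -60, whereas the other 6 held it in the bases just after the start. The 170 bases before the start of Nop2 (chr6:125131713-125131882, plus strand) are shown because they hold both motifs, with the E-box and the 3 ETS cores in capitals.
Nop2: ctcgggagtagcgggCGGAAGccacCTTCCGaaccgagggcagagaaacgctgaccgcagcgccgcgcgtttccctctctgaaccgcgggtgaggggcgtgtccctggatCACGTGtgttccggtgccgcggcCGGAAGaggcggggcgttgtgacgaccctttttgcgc
A match describes letters and is not a binding site, and factor binding was not measured.

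A further feature shared by some of the genes was found in their introns. In the GENCODE M21 annotation, 7 of the 38 genes (18.4%) contained annotated snoRNA genes on their own strand, compared with 1.86% of tested genes with a position. They were Nop56 with 5 snoRNA genes, Nop58 with 4, Ncl, Wdr43 and Gnl3 with 3 each, Tsr1 with 2 and Dkc1 with 1. The snoRNAs themselves were not measured here. In the same annotation, 18 of the 38 genes shared between 5 and 1240 exon bases with a gene on the opposite strand, most of all Tsr1 with Srr (1240 bases) and Noc2l with Samd11 (598 bases). Without strand information, reads from such stretches cannot be told apart, and the values of these genes are uncertain to that extent. The same holds for Npm1, which has processed copies elsewhere in the mouse genome.

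The first comparison asked whether leukemic stem cells marked as G0 differ from G0M-CD27+ cells in mice given vehicle. All 38 genes had a log2 fold change at or below 0 in DP against SP cells, compared with 51.9% of all genes tested, but the differences were small, with a median of -0.23 on the log2(RPKM + 0.1) scale, compared with -0.02 over all genes. None of the 38 passed the threshold of an adjusted p of 0.05 (limma), which 2.26% of all genes passed. At an unadjusted p of 0.05, 3 of the 38 passed (Ftsj3, Bysl and Wdr74), compared with 13.2% of all genes, and limma-voom on the recovered reads called none and had 2 at an unadjusted p of 0.05. With neighbouring library numbers as a block, 3 of the 38 were called lower (Bop1, Wdr74 and Ftsj3), compared with 9.73% of all genes, and with median scaling as well 8 were called, compared with 14.7% of all genes. The 3 DP libraries lay below all 3 SP libraries for 15 of the 38 genes, compared with 12.7% of all genes, and above them for none, compared with 9.68%.

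Npm1 was measured at 113, 95.3 and 75.3 RPKM in DP1, DP2 and DP3 and at 92.4, 124 and 107 RPKM in SP1, SP2 and SP3. The groups overlapped, and the log2 fold change was -0.20 (SE 0.21, adjusted p 0.695). Ncl, which encodes nucleolin, the abundant RNA-binding protein of the nucleolus, was measured at 32.5, 28.5 and 25.7 RPKM in the DP libraries and at 29.9, 37.4 and 31.8 RPKM in the SP libraries. It overlapped as well, with a log2 fold change of -0.19 (SE 0.22, adjusted p 0.721). For both genes the DP library was the lower one in each of the 3 pairs of neighbouring library numbers (DP1 with SP2, DP2 with SP3 and DP3 with SP1). Fbl (chr7:28169710-28179269 in GRCm38) was measured at 55.6, 52.5 and 47.0 RPKM in the DP libraries and at 59.4, 62.9 and 60.7 RPKM in the SP libraries. Every DP library was below every SP library, although the log2 fold change of -0.24 (SE 0.20) did not pass (adjusted p 0.613).

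Polr1a, the largest subunit of RNA polymerase I (chr6:71909053-71984935), was measured at 8.85, 7.28 and 7.36 RPKM in the DP libraries and at 10.3, 9.83 and 9.92 RPKM in the SP libraries, again without overlap. Its log2 fold change was -0.36 (SE 0.18, adjusted p 0.415). Polr1b, the second largest subunit, was measured at 9.91, 8.43 and 8.59 RPKM in the DP libraries and at 9.77, 10.6 and 8.92 RPKM in the SP libraries. The groups overlapped for this subunit, with a log2 fold change of -0.12 (SE 0.23, adjusted p 0.837). The lowest fold changes were those of large subunit assembly factors, -0.64 for Wdr74 (12.1 ± 1.74 against 19.3 ± 5.37 RPKM, SD, n = 3) and -0.57 for Ftsj3 (11.7 ± 2.95 against 17.2 ± 1.61 RPKM), with adjusted p values of 0.379 and 0.345. At the other end, Tsr1, Ddx10 and Nop58 had means of 10.5, 4.50 and 18.7 RPKM in DP and of 10.5, 4.56 and 19.1 RPKM in SP cells. Fewer cells of a type and less RNA per cell cannot be told apart in such bulk libraries.

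The same comparison was made after imatinib, and whether the difference changed with treatment is given with the interaction below. In IMDP against IMSP cells, 20 of the 38 genes fell and none rose, and all 38 fold changes were below 0. Of all genes tested, 23.3% were called lower and 2.37% higher, 25.6% in both directions together, and 69.0% had a fold change below 0. The median log2 fold change of the 38 genes was -0.69, compared with -0.25 over all genes. The median scaling below removes only the shift of all genes. The 38 genes ranged from -1.09 (Pno1) to -0.26 (Ddx10). The 3 IMDP libraries lay below all 3 IMSP libraries for 24 genes, compared with 32.8% of all genes, and above them for none, compared with 6.21%. Libraries of these groups with equal replicate numbers were taken as pairs. The labels do not give this pairing, which rests on correlations in these same data. Within each of the 3 pairs all 38 genes were lower in the IMDP library, and with the library number as a block 37 of the 38 were called, compared with 44.1% of all genes.

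**Figure D2:**
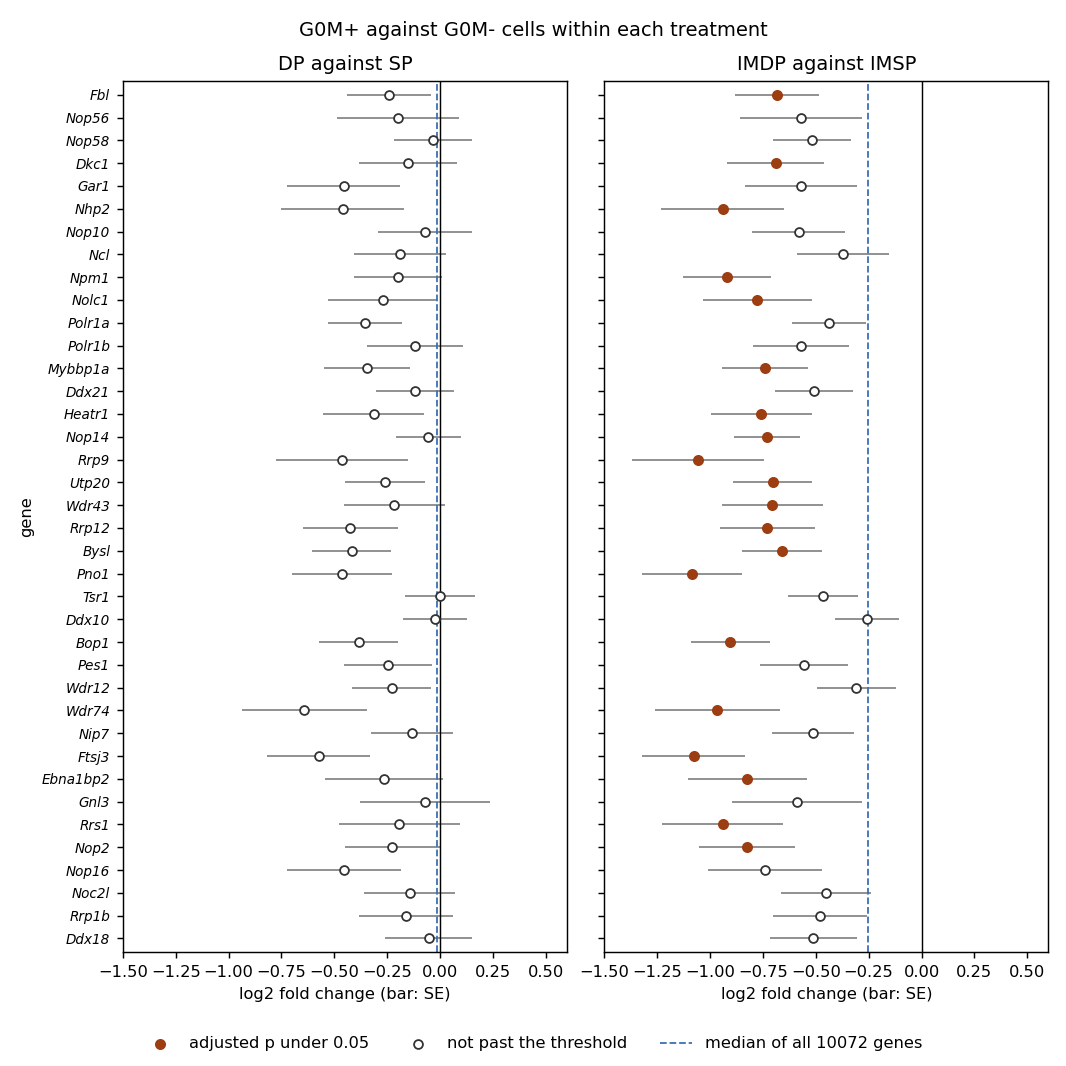
Log2 fold change of each of the 38 genes in DP against SP cells (left) and in IMDP against IMSP cells (right); bars are standard errors of the limma fit, filled points passed an adjusted p of 0.05, and the dashed line is the median of all 10072 genes. No gene was called on the left and 20 were called on the right.

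The scaling of the libraries decided how many of these genes passed. After all libraries were scaled to the same median over all genes, 4 of the 38 were called (Npm1, Pno1, Bop1 and Ftsj3), compared with 15.8% of all genes, and 37 of the 38 remained below 0 with a median of -0.42. The same 4 genes were called after scaling to the same sum over listed features and by limma-voom on the recovered reads. Their share, 10.5% of the 38 genes, was then below that of all genes. Without IMDP2, 5 genes were called (Npm1, Nop14, Pno1, Bop1 and Ftsj3), compared with 11.7% of all genes. Without IMSP1, 3 genes were called (Nop14, Pno1 and Bop1), compared with 8.96% of all genes, and without IMSP3 there were 7, compared with 22.1% of all genes. With median scaling and without IMDP2, none of the 38 was called and 4 had an unadjusted p under 0.05. With median scaling and the library number as a block together, an alternative chosen after seeing the data, 25 of the 38 were called, compared with 39.2% of all genes.

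Among the factors of the large subunit, 6 of 14 genes fell, compared with 23.3% of all genes called lower. Bop1, which with Pes1 and Wdr12 forms the PeBoW complex needed for large subunit rRNA processing (chr15:76452989-76477277), was measured at 13.6, 9.61 and 13.5 RPKM in IMDP1, IMDP2 and IMDP3 and at 28.4, 17.3 and 23.8 RPKM in IMSP1, IMSP2 and IMSP3. Every IMDP library was below every IMSP library, and Bop1 was 1.87-fold lower (log2 fold change -0.90, SE 0.19, adjusted p 0.00705). Its partners differed less, with Pes1 at 10.4 ± 3.19 against 14.9 ± 2.32 RPKM (adjusted p 0.0693) and Wdr12 at 8.63 ± 1.96 against 10.6 ± 1.88 RPKM (adjusted p 0.238). Ftsj3, an rRNA methyltransferase of the large subunit path (chr11:106249142-106256079), was measured at 13.1, 7.04 and 10.7 RPKM in the IMDP libraries and at 23.9, 16.2 and 24.2 RPKM in the IMSP libraries. The groups did not overlap, and Ftsj3 was 2.11-fold lower (log2 fold change -1.08, SE 0.24, adjusted p 0.0104).

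The remaining calls of this group were Wdr74 (10.9 ± 3.80 against 20.9 ± 5.32 RPKM), Rrs1 (3.93 ± 1.54 against 7.44 ± 2.15 RPKM), Nop2 (9.15 ± 2.61 against 16.2 ± 3.89 RPKM) and Ebna1bp2 (3.67 ± 1.17 against 6.43 ± 1.44 RPKM). Nop2 and Rrs1 belong to the factors that build the early large subunit in the nucleolus. The other 6 genes of the group did not pass. Nop16 had means of 11.6 in IMDP and 18.96 RPKM in IMSP cells, Nip7 of 6.93 and 9.73, Gnl3, the gene of nucleostemin, of 19.5 and 28.0, Noc2l of 44.8 and 60.0, Rrp1b of 8.31 and 11.6 and the helicase gene Ddx18 of 11.8 and 16.2 RPKM.

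Among the factors of the small subunit, 8 of 10 genes fell, compared with 23.3% of all genes called lower. Pno1, an RNA-binding factor of small subunit maturation whose E-box is shown above (chr11:17203198-17211568), was measured at 8.41, 4.42 and 7.62 RPKM in the IMDP libraries and at 16.5, 12.8 and 13.2 RPKM in the IMSP libraries. All IMDP values were below all IMSP values, and Pno1 was 2.12-fold lower (log2 fold change -1.09, SE 0.24, adjusted p 0.00881), the lowest fold change of the 38 genes. Nop14 (chr5:34638536-34660148), a component of the large early particle on the rRNA precursor, was measured at 3.55, 2.69 and 3.91 RPKM in the IMDP libraries and at 5.48, 5.21 and 6.20 RPKM in the IMSP libraries. It did not overlap between groups and was 1.66-fold lower (log2 fold change -0.73, SE 0.16, adjusted p 0.00783).

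Utp20 (chr10:88746607-88826804), a scaffold of the same particle, was measured at 8.81, 5.39 and 7.97 RPKM in the IMDP libraries and at 12.8, 9.96 and 13.1 RPKM in the IMSP libraries. Its groups did not overlap, with a log2 fold change of -0.70 (SE 0.19, adjusted p 0.0197). The other calls of the small subunit were Rrp9, a protein of the U3 snoRNP (6.47 ± 2.61 against 13.1 ± 3.82 RPKM), Heatr1 (11.9 ± 3.79 against 19.6 ± 3.71 RPKM), Rrp12 (7.22 ± 2.63 against 11.6 ± 1.47 RPKM), Wdr43 (13.9 ± 4.57 against 22.0 ± 3.93 RPKM) and Bysl (3.86 ± 0.571 against 6.20 ± 1.23 RPKM). Tsr1 (9.83 ± 1.96 against 13.5 ± 1.57 RPKM) and Ddx10 (3.99 ± 0.651 against 4.77 ± 0.335 RPKM) did not pass, with adjusted p values of 0.0567 and 0.219. None of these calls except Pno1 passed after median scaling.

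Of the abundant nucleolar proteins, Npm1 (chr11:33152287-33163206) was measured at 66.4, 42.1 and 55.9 RPKM in the IMDP libraries and at 125, 86.9 and 97.6 RPKM in the IMSP libraries. The highest IMDP value was below the lowest IMSP value, and Npm1 was 1.89-fold lower (log2 fold change -0.92, SE 0.21, adjusted p 0.0103). Ncl (chr1:86344719-86359400) was measured at 34.0, 18.9 and 31.8 RPKM in the IMDP libraries and at 41.1, 28.7 and 37.6 RPKM in the IMSP libraries. These groups overlapped, and the log2 fold change of -0.37 (SE 0.22) did not pass (adjusted p 0.225) and turned to 0.054 after scaling to the same sum over listed features. Nolc1, a chaperone of snoRNPs, fell from 18.8 ± 4.60 RPKM in IMSP to 11.1 ± 3.58 RPKM in IMDP cells (adjusted p 0.0452), with overlap between the groups.

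Of the snoRNP proteins, 3 of 7 genes fell, compared with 23.3% of all genes called lower. Fbl was measured at 46.3, 25.3 and 42.9 RPKM in the IMDP libraries and at 68.9, 54.6 and 55.6 RPKM in the IMSP libraries. No IMDP library reached the lowest IMSP library, and the log2 fold change was -0.68 (SE 0.20, adjusted p 0.0272). Dkc1, the pseudouridine synthase of box H/ACA snoRNPs and of telomerase RNA (17.3 ± 5.38 against 27.3 ± 4.87 RPKM), and its partner Nhp2 (6.72 ± 1.53 against 13.2 ± 4.12 RPKM) also fell, with adjusted p values of 0.0466 and 0.0351. The other box H/ACA proteins Gar1 (7.24 ± 3.21 against 10.2 ± 1.21 RPKM) and Nop10 (39.7 ± 8.85 against 59.1 ± 10.3 RPKM) and the box C/D proteins Nop56 (23.8 ± 8.96 against 34.1 ± 8.87 RPKM) and Nop58 (15.7 ± 4.41 against 22.1 ± 2.65 RPKM) did not pass.

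Of the 4 genes of rRNA transcription, 1 fell, near the 23.3% of all genes called lower. Mybbp1a was at 39.6 ± 11.3 RPKM in IMDP and at 65.0 ± 11.9 RPKM in IMSP cells (log2 fold change -0.74, adjusted p 0.0218). Polr1a was measured at 8.92, 5.84 and 8.28 RPKM in the IMDP libraries and at 11.2, 8.54 and 11.4 RPKM in the IMSP libraries, and the highest IMDP value exceeded the lowest IMSP value (log2 fold change -0.44, SE 0.18, adjusted p 0.0848). Polr1b was measured at 10.2, 5.77 and 10.1 RPKM in the IMDP libraries and at 15.0, 9.53 and 13.8 RPKM in the IMSP libraries, again with overlap (log2 fold change -0.57, SE 0.23, adjusted p 0.083). Ddx21, a helicase that acts in RNA polymerase I transcription and rRNA processing, had 23.0 ± 5.87 RPKM in IMDP and 32.1 ± 3.74 RPKM in IMSP cells (adjusted p 0.0627). With the library number as a block, all 4 genes were called.

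The counts under the other settings are drawn in the chart of calls by setting. The 38 genes had a larger share of calls than all genes in the blocked fits, with another pseudocount or filter, with copies kept apart and without IMDP2, and a smaller share with the groups compared alone, with scaling but no block, with limma-voom, without IMSP1 and without IMSP3, the last of which is not drawn.

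**Figure D3:**
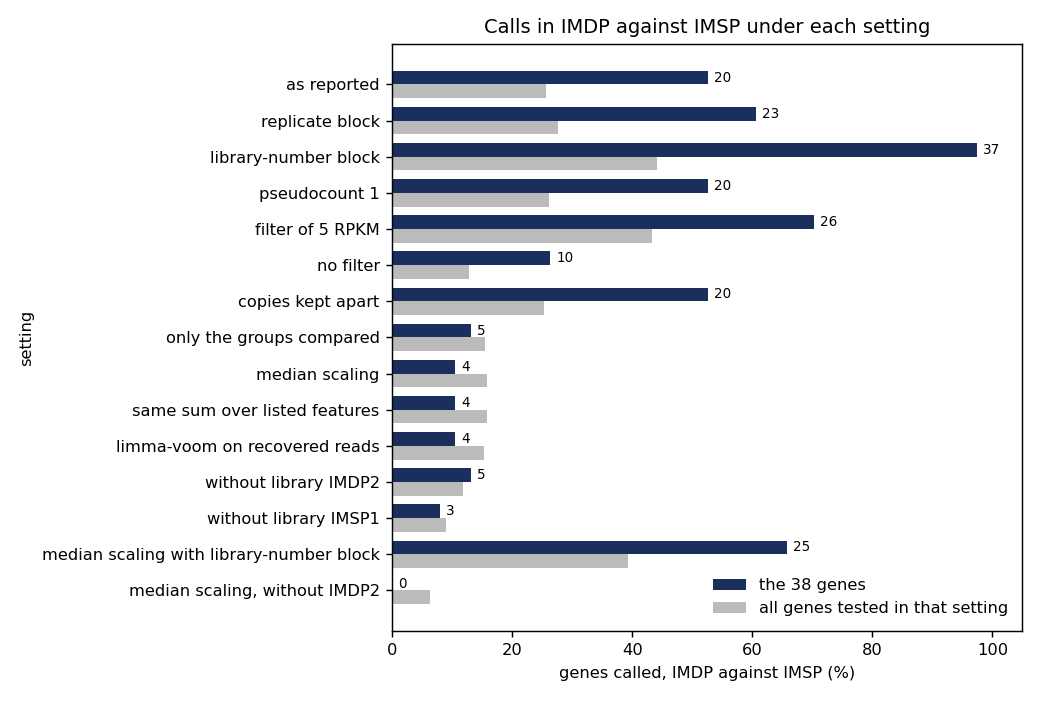
Percent of the 38 genes (dark bars, with the number of genes) and of all genes tested (grey bars) that were called in IMDP against IMSP cells under each setting; 37 genes were tested with the filter of 5 RPKM. The number called ran from 0 to 37, and 20 were called as reported.

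The promoter motifs did not separate the called genes in a simple way. Of the 7 genes with an E-box in their window, 5 fell in IMDP against IMSP cells (Mybbp1a, Nop2, Pno1, Utp20 and Wdr43), and of the 26 other genes with a window 10 fell. Of the 18 genes with an ETS core 9 fell, and of the 15 without it 6 fell. All 5 genes for which no window was given (Rrs1, Fbl, Npm1, Rrp12 and Bop1) fell. These counts are descriptions of a small list, and 23.3% of all genes tested were called lower in this comparison.

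Treatment was compared within each population. In IMDP against DP cells, none of the 38 genes was called (limma), and 0.367% of all genes were (0.338% lower and 0.0298% higher). An unadjusted p of 0.05 was passed by 3 genes (Npm1, Nop14 and Fbl), compared with 20.5% of all genes, and limma-voom called none and had 1 at an unadjusted p of 0.05. Of the 38 genes 36 were below 0, compared with 69.3% of all genes, and the median log2 fold change of -0.20 was close to that of all genes, -0.17. Npm1, with 54.8 ± 12.2 RPKM in IMDP and 94.4 ± 18.8 RPKM in DP cells, had the lowest fold change (-0.79, SE 0.21, adjusted p 0.0924). From the library values given above, every IMDP library was below every DP library for Npm1 and for Fbl (38.2 ± 11.2 against 51.7 ± 4.34 RPKM, adjusted p 0.204).

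Nop14 was measured at 5.03, 4.23 and 4.45 RPKM in the DP libraries, all above the IMDP values (log2 fold change -0.44, SE 0.16, adjusted p 0.157). Bop1 was the only other of the 38 genes without overlap, so that 4 genes lay below, compared with 19% of all genes. The direction of the list as a whole turned with the processing. Without IMDP2 the median was 0.04, after scaling to the same sum over listed features it was 0.10, and under that scaling 9 of the 38 genes were below 0. IMDP1 alone was above every DP library for 15 genes.

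In IMSP against SP cells, 35 of the 38 genes were above 0, with a median log2 fold change of 0.21, compared with 0.08 over all genes. None was called (limma), and 0% of all genes were called. None passed an unadjusted p of 0.05 either, which 8.39% of all genes passed, and limma-voom gave 0 on both counts. Only Tsr1, Nop14 and Nop58 lay above the SP libraries in all IMSP libraries, compared with 11.1% of all genes, and none lay below them, compared with 2.72%. The largest fold changes were those of Rrs1 (0.41, SE 0.29, adjusted p 0.734), Nop2 (0.38, SE 0.23, adjusted p 0.688) and Gnl3 (0.38, SE 0.31, adjusted p 0.79).

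Rrs1 was measured at 5.08, 5.90 and 5.22 RPKM in the SP libraries and at 9.00, 4.98 and 8.33 RPKM in the IMSP libraries. Nop2 was measured at 12.9, 11.8 and 11.7 RPKM in the SP libraries and at 18.9, 11.7 and 17.9 RPKM in the IMSP libraries. Gnl3 was measured at 18.5, 25.1 and 20.4 RPKM in the SP libraries and at 33.6, 20.8 and 29.7 RPKM in the IMSP libraries. In each of these genes IMSP1 and IMSP3 were above all SP libraries, and IMSP2 was within or below their range.

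The interaction asked whether the difference between G0M+ and G0M- cells changed with imatinib. All 38 genes had an interaction below 0, that is, a lower ratio of G0M+ to G0M- cells after imatinib, but so had 77.7% of all genes. None of the 38 and none of all genes passed (0%). An unadjusted p of 0.05 was passed by 2 of the 38 genes and by 9.30% of all genes in limma, and by none of the 38 in limma-voom. The 3 genes with the smallest p were Nop14 (-0.68, SE 0.22, adjusted p 0.534), Npm1 (-0.72, SE 0.29, adjusted p 0.534) and Tsr1 (-0.47, SE 0.23, adjusted p 0.543). Nop14 was measured at 4.80, 4.87 and 4.56 RPKM in the SP libraries, within the range of its DP values. Tsr1 was measured at 11.5, 10.6 and 9.40 RPKM in DP cells, 10.1, 10.0 and 11.4 in SP cells, 11.1, 7.57 and 10.8 in IMDP and 14.5, 11.7 and 14.3 RPKM in IMSP cells, so the IMSP libraries were above all others. With median scaling and without IMDP2, the median interaction of the 38 genes was 0.01. A larger difference after imatinib was therefore not shown for any gene, although 20 genes passed in one treatment and none in the other.

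Averaged over both treatments, 17 of the 38 genes were called lower in G0M+ than in G0M- cells and none higher, compared with 26.3% of all genes called, 21% lower. All 38 were below 0, compared with 63.4% of all genes, and 26 passed an unadjusted p of 0.05, compared with 41.4%. The smallest adjusted p values were those of Bop1 (log2 fold change -0.65, adjusted p 0.00606), Ftsj3 (-0.83, adjusted p 0.00656) and Pno1 (-0.77, adjusted p 0.00747). For 8 genes, all 6 G0M+ libraries lay below all 6 G0M- libraries, compared with 7% of all genes. They were Bop1, Ftsj3, Pno1, Wdr74, Mybbp1a, Rrp9, Nop2 and Heatr1. The count was 6 after median scaling, compared with 23.6% of all genes, and 36 with the library number as a block, compared with 46.9% of all genes. It was 12 without IMDP2, compared with 18.2% of all genes, and 7 without IMSP1 or without DP3, compared with 16% and 15.7% of all genes.

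Libraries with neighbouring numbers in the labels each held 1 G0M+ and 1 G0M- library, and the 6 such pairs were compared as a description. The G0M+ library was the lower one for 38 genes in each of the 3 imatinib pairs and for 38, 33 and 34 genes in the 3 vehicle pairs. In the pair of IMDP2 and IMSP2 the median log2 difference was -0.90, and in the other pairs it lay between -0.54 and -0.17. In all 6 pairs 29 of the 38 genes were lower, compared with 24.9% of all genes. Measured against the median difference of all genes in each pair, 26 of the 38 were lower in all 6 pairs, compared with 20.2% of all genes, and the median of the 38 genes lay between 0.19 and 0.51 log2 units below that of all genes. Each of the 38 genes was lower in at least 5 of the 6 pairs. The labels do not say that neighbouring numbers were handled together.

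The summed level of the 38 genes was 673.5 ± 87.3 RPKM in DP cells, 788 ± 69.6 in SP cells, 569 ± 158 in IMDP and 892 ± 153 RPKM in IMSP cells. The mean log2 level of the 38 genes relative to the median of all genes was 1.50 ± 0.12 in DP cells, 1.71 ± 0.12 in SP cells, 1.43 ± 0.36 in IMDP and 1.83 ± 0.31 in IMSP cells. IMDP2 was at 1.01, whereas IMDP1 and IMDP3 were at 1.60 and 1.67 and thus not below the DP libraries (1.37 to 1.61). IMSP2, its partner, was at 1.48, compared with 1.98 in IMSP1 and 2.04 in IMSP3. The low and high libraries of the imatinib groups therefore came in pairs.

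**Figure D4:**
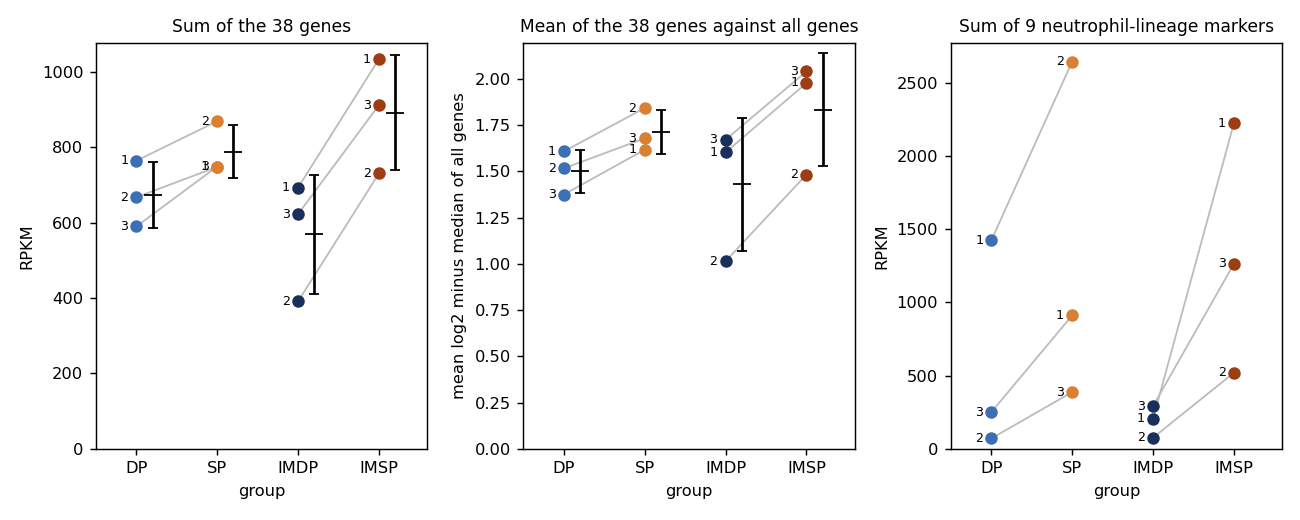
Summed RPKM of the 38 genes (left), their mean log2 level minus the median of all genes (middle) and summed RPKM of 9 neutrophil-lineage genes (right) in each library; digits are replicate numbers, grey lines join libraries with neighbouring library numbers, and black bars in the left and middle plots are means ± SD. In every pair the G0M- library is the higher one.

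Several other gene lists moved with the same libraries. The neutrophil-lineage genes (9 genes such as Mpo and Elane, which mark granulocyte progenitors, 5 of them tested) summed to 70.7 to 1424 RPKM in DP cells, 388 to 2647 in SP cells, 75.9 to 292 in IMDP and 520 to 2226 RPKM in IMSP cells. The libraries highest in these genes, SP2, IMSP1, DP1 and IMSP3, were also the highest of their group or next to it in the 38 genes. Of the 5 tested genes 4 did not overlap between IMDP and IMSP cells and none was called (limma, 4 at an unadjusted p of 0.05), and the late genes Camp and Ngp were at or below 0.30 RPKM in all libraries. Averaged over treatments, 3 of the 5 fell, with adjusted p values of 0.0299 for Mpo, 0.0417 for Prtn3 and 0.0418 for Ctsg. The division genes, among them Mki67 and Top2a, summed to 165 to 365 RPKM in G0M+ and to 501 to 611 RPKM in G0M- libraries. Of 15 division genes, 8 fell in DP against SP and 13 in IMDP against IMSP cells, with medians of -1.94 and -2.90. The replication genes of that list differed in DP against SP cells. Mcm2, Mcm3, Mcm5 and Pcna had log2 fold changes of 0.42, 0.18, 0.12 and 0.07, and Tyms and Rrm2 of -0.46 and -0.71. None of these was called (limma).

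Mast cell and basophil markers (10 genes, 7 tested) were highest in G0M+ libraries. They summed to 298 RPKM in DP1 and 197 RPKM in IMDP1, which also had the highest sum of the 38 genes in their groups, compared with 16.1 to 83.5 RPKM in the other 10 libraries, and Cma1 was at 0 in all SP and IMSP libraries while Tpsab1 was at 0 in all libraries. Of the 7 tested genes, 2 rose in DP against SP and 1 in IMDP against IMSP cells. Macrophage markers (8 genes, 6 tested) summed to 3.30 to 37.9 RPKM, with C1qa, C1qb and C1qc at 0 in all SP and IMSP libraries. Of the 6 tested, 1 rose in DP against SP and 3 in IMDP against IMSP cells. The highest sum was that of IMSP3, a G0M- library, in which Csf1r was at 28.7 RPKM. Csf1r and Cd68 had log2 fold changes of -0.63 and 0.05 in IMDP against IMSP cells and were not called (limma). Erythroid markers (8 genes, 5 tested) summed to 9.43 to 484 RPKM and were highest in IMDP1, and 1 of the 5, Hbb-bt, rose in IMDP against IMSP cells (log2 fold change 2.03, adjusted p 0.0361). The megakaryocyte markers (7 genes, 6 tested) summed to 7.43 to 128 RPKM and were high in DP1 and IMDP2. Lymphoid markers (8 genes, 1 tested) stayed between 1.38 and 4.79 RPKM, with Pax5 and Ms4a1 at 0 in all libraries. Averaged over treatments, Cma1, Mcpt8, Prss34, Fcer1a, C1qc, Adgre1, Vcam1, Hmox1, Hbb-bt and Ppbp were called higher in G0M+ cells (limma). The other tested markers in this paragraph were not called, and 5.32% of all genes were called higher. The part of all these cell types, and of the cell cycle, in the differences of the 38 genes was not tested.

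MYC and its relatives did not all move in the same direction between the populations. Myc itself was measured at 40.0, 25.9 and 27.3 RPKM in DP cells, 27.8, 37.99 and 20.8 in SP cells, 39.8, 13.8 and 38.5 in IMDP and 51.4, 22.0 and 44.1 RPKM in IMSP cells. It overlapped between the populations in both treatments, with log2 fold changes of 0.12 (adjusted p 0.916) in DP against SP and -0.41 (adjusted p 0.486) in IMDP against IMSP cells. IMDP2, the lowest library of the 38 genes, was also the lowest for Myc, and IMSP2 was the lowest of its group. Mycn rose in IMDP against IMSP cells (log2 fold change 1.55, adjusted p 0.0143), as did Mxd4, an antagonist of MYC (1.31, adjusted p 0.00683). Mxd3, of the same family as Mxd4, fell in IMDP against IMSP (-1.98, adjusted p 0.00183) and in DP against SP cells (-1.46, adjusted p 0.0311). Mxd1 fell in IMDP against DP cells (-1.66, adjusted p 0.0268). In DP against SP cells the fold changes of Mycn, Mxd1 and Mxd4 were 0.77, 0.90 and 1.06, with adjusted p values of 0.415, 0.0536 and 0.0744. Averaged over treatments, 3 relatives were called higher in G0M+ cells (limma). They were Mycn (1.16, adjusted p 0.0103), Mxd4 (1.18, adjusted p 0.00155) and Mxd1 (0.67, adjusted p 0.00942). Mxd3 was called lower (-1.72, adjusted p 0.000306), and Myc and the other tested relatives were not called.

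The other genes of the pathway were examined with the same fit, as 137 genes in 5 lists, all of which were tested. In DP against SP cells none was called, 20 passed an unadjusted p of 0.05 in limma and 19 in limma-voom. Below 0 were 111, at a median of -0.20. Of all genes, 2.26% were called, 13.2% passed the unadjusted p in limma and 51.9% were below 0. In IMDP against IMSP cells 72 of the 137 fell and none rose, with a median of -0.59. Of all genes, 23.3% were called lower and 2.37% higher, and the share called lower also stands beside the counts by list. The counts were 4 of 14 for RNA polymerase I subunits and factors, 5 of 8 for snoRNP assembly, 27 of 48 for the small subunit, 27 of 53 for the large subunit and 9 of 14 for the nuclear exosome, which trims rRNA ends. After median scaling 28 of the 137 were called, compared with the 15.8% of all genes given above. Without IMDP2 there were 32, compared with the share of all genes given above for that setting. Averaged over both treatments 66 fell, compared with 21% of all genes called lower. The smallest adjusted p values were those of Exosc8, an exosome subunit (log2 fold change -0.96, adjusted p 0.000878), Utp3 (-0.66, adjusted p 0.000982), Lyar (-1.22, adjusted p 0.00182), Nop9 (-0.92, adjusted p 0.0019) and Wbscr22, an rRNA methyltransferase (-0.74, adjusted p 0.00217).

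Exosc8 had mean levels of 6.90 RPKM in DP cells, 9.91 in SP cells, 4.36 in IMDP and 11.3 RPKM in IMSP cells, and Lyar, a nucleolar growth factor, of 5.78, 10.2, 2.86 and 8.58 RPKM. In both genes the G0M+ cells were lower in each treatment. The averaged fold change was above 0 for 6 of the 137 genes. The highest was that of Riok2, a kinase of late small subunit maturation, with means of 4.32 RPKM in DP cells, 3.17 in SP cells, 4.25 in IMDP and 4.08 RPKM in IMSP cells. Its averaged log2 fold change was 0.23 (adjusted p 0.331), and Riok2 was chosen after this value was seen.

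The ribosomal protein genes, whose products the pathway assembles, were examined with the same fit. Of 77 cytosolic ribosomal protein genes none was called in DP against SP cells (limma, 1 at an unadjusted p of 0.05). Below 0 were 15, and the median log2 fold change was 0.07, whereas all 38 biogenesis genes were at or below 0. Of all genes, 2.26% were called, 13.2% passed the unadjusted p and 51.9% were below 0. In IMDP against IMSP cells 22 of the 77 fell, compared with 23.3% of all genes called lower. Their median was -0.32, closer to the -0.25 of all genes than to the -0.69 of the 38 genes. In IMDP against DP cells all 77 were below 0, with a median of -0.34, and 1 was called. Of all genes, 69.3% were below 0 and 0.367% were called. Other scalings were not run for this list, so its direction may rest on the scaling. The lists were not tested against each other. The plot of cumulative fold changes shows the 38 genes and the 137 other genes of the pathway side by side, and the ribosomal proteins apart from them in the comparisons of populations.

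**Figure D5:**
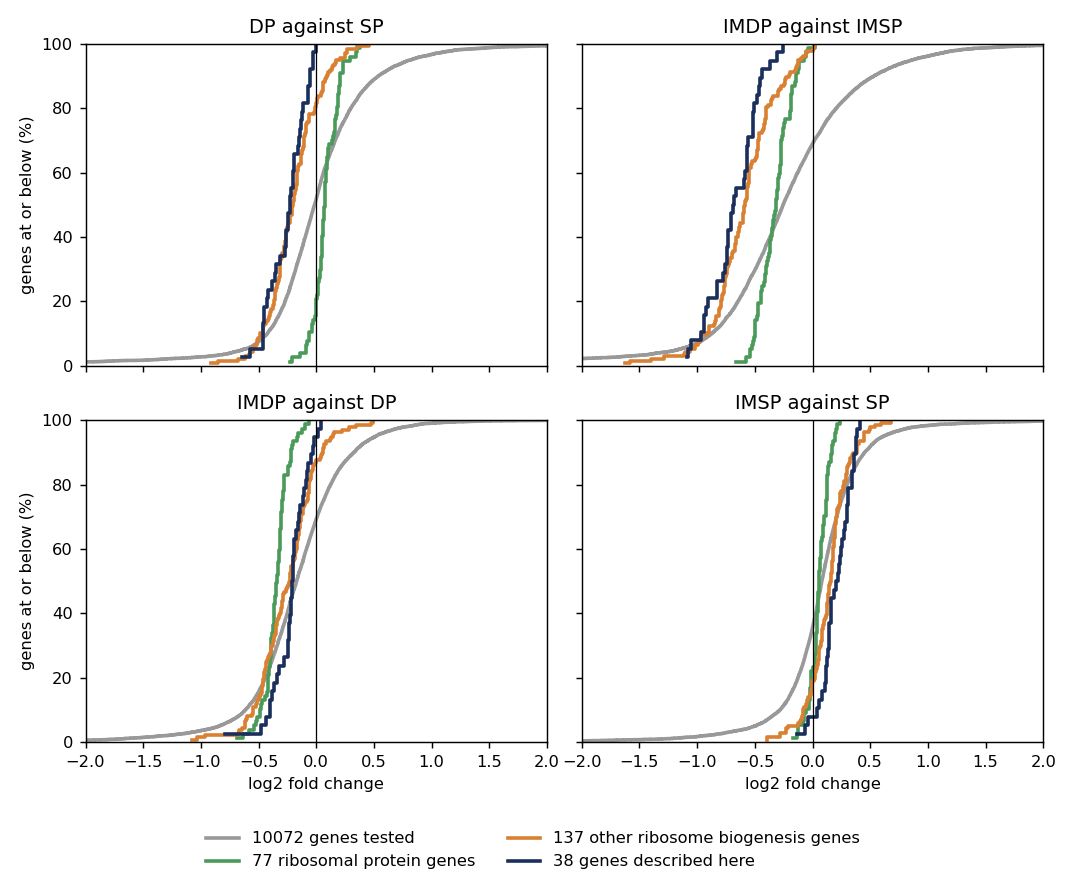
Cumulative percent of genes (vertical axis) at or below a log2 fold change (horizontal axis, cut at -2 and 2) in 4 comparisons, for all 10072 genes tested, 77 ribosomal protein genes, 137 other ribosome biogenesis genes and the 38 genes. The medians of the 38 genes are -0.23, -0.69, -0.20 and 0.21 in the order of the panels.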

How the data were processed

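RNA of 100 sorted cells per library was made into Nextera XT libraries after priming with not-so-random primers, a kit that does not mark strand. The authors mapped the reads to GRCm38 (CLC Genomics Workbench in the methods, HISAT2 and featureCounts in the reporting summary, edgeR in the processing notes) and deposited RPKM, that is, reads scaled by transcript length and library total. Whether a further normalization is part of these values is not given in the sources used here. Reads were recovered from the RPKM steps, within 0.01 of a whole number for all 17735 features above 0. PCR copies were not marked.

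Numbered copies were summed. The fit held genes that reached 1 RPKM in 3 or more libraries and used limma 3.58.1 (R 4.3.3) on log2(RPKM + 0.1), with 4 group means, a variance trend and Benjamini-Hochberg adjustment over 10072 genes, two-sided. Alternatives changed the pseudocount, the filter, the scaling, the groups in the fit, the block or the libraries, or used limma-voom on the reads with TMM factors. Deviations from group means of IMDP and IMSP libraries with equal replicate numbers correlated at 0.43, 0.65 and 0.46, so these were taken as pairs; those of DP and SP correlated at -0.19, -0.30 and -0.10 and were not. By neighbouring library numbers, which the library-number block pairs and which join the same IMDP and IMSP libraries, DP and SP correlated at 0.50, 0.51 and 0.52. The fits were tested on simulated data.

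The 38 genes and all lists were chosen with earlier results of these data known. All 38 are named. Library values are given for Ncl, Npm1, Fbl, Polr1a and Polr1b, for the 6 calls with the smallest adjusted p in each population comparison, for the 3 largest fold changes of each treatment comparison and for the 3 smallest interaction p values. The 5 other pathway genes with the smallest adjusted p averaged over treatments are named with fold changes. Library values of Myc lie outside this rule and were chosen after they were seen. Sequences are from RefSeq (GRCm38.p6) and gene positions from GENCODE M21. Figures were made with matplotlib 3.10.9.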

Additional observations from a re-analysis of the deposited data

How the results depend on the processing

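The counts of called genes among the 38 depended on scaling, blocking and single libraries, whereas every call in every setting was lower in G0M+ cells. In DP against SP cells the count of 0 became 3 with the library-number block and 8 with that block after median scaling. In IMDP against IMSP cells the count of 20 became 10 without a filter, 5 with only the groups compared in the fit, 37 with the library-number block, 4 with median scaling, with the same sum over listed features and with limma-voom, and 0 with median scaling and the second IMDP library left out. Leaving out 1 library at a time gave 3 (without IMSP1) to 30 (without IMDP1). Averaged over treatments, the count of 17 became 36 with the library-number block, 6 with median scaling, 5 with the same sum, 7 with limma-voom, 28 with median scaling and the block, and 3 with median scaling and the second IMDP library left out, and leaving out 1 library gave 7 (without DP3 or IMSP1) to 28 (without IMDP1), with 8 without DP2 or SP2, 10 without SP1 and 11 without IMSP3. In IMDP against DP, IMSP against SP and the interaction it was 0 in every setting run; the library-number block was not run for IMDP against DP and IMSP against SP, whose libraries it does not pair, nor a fit of only the groups compared for the interaction, which uses all groups. The replicate block, which pairs equal numbers, gave 23 in IMDP against IMSP and 21 averaged over treatments and 0 elsewhere. Its pairing has no support from the correlations of the DP and SP libraries. Over the named genes, 809 values kept direction and call, 133 lost the call, 8 gained it and 2 changed sign, both for Ncl in IMDP against IMSP cells (0.054 with the same sum and 0.13 with median scaling and the second IMDP library left out). The cause of these changes was not tested. Scaling to the median and library-number block together, and the omission of the second IMDP library with median scaling, were chosen after seeing the data. With 3 libraries of 100 cells per group and as few as 68 reads for a gene in a library, both counting error and the spread between libraries limit these comparisons, and their parts were not separated.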
